A study of Arabidopsis halleri and Arabidopsis lyrata subsp. petraea with 24 samples.

Results

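The genes described here encode proteins of the cytosolic large ribosomal subunit of Arabidopsis. They were chosen as 56 listed loci, and each was looked up by its locus name in the annotation of the array's probe sets. Of the 56 loci, 40 had a probe set that named no other gene, 6 occurred only in a probe set shared with another gene and 10 were not found under their locus name, so these 16 were not analysed here. One of the 40, AT5G24510 (a P1 protein), was left out by a filter on low signals, with a signal between 2.9 and 73.8 and a median of 23.2 over the 24 arrays. The mean log2 value of AT5G24510 was 5.24 against a threshold of 5.27, and the dimmest members that passed were AT3G16780 (L19) at 6.16 and AT3G48960 (L13) at 6.56. The remaining 39 genes are called the members, and they are 39 of the 17107 probe sets tested on an array of 22810. The annotation gives loci only, so the protein class of each member (L4, L29, P1 and so on) is given from general knowledge of the A. thaliana genes.

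The large subunit joins amino acids into protein, and its proteins fold around ribosomal RNA, line the tunnel through which the new chain leaves and bind the factors that drive elongation. Plants carry small families of near-identical paralogs for most ribosomal proteins. Actively growing organs generally make more ribosomes, and the ribosomal protein genes of plants are known to move together with growth. The acidic proteins P1 and P2 form a flexible stalk that recruits elongation factors, and L12 lies at the base of this stalk. L29 is a small basic protein on the surface of the subunit.

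Signals were measured on ATH1 arrays, which carry probes designed on Arabidopsis thaliana. Whole root systems and rosette leaves of Arabidopsis halleri, a zinc-tolerant species, were set against those of Arabidopsis lyrata subsp. petraea (A. petraea below), a relative that is not zinc-tolerant, and plants given 25 µM zinc (high zinc) against plants on full mineral medium (control). Species, organ and medium gave 8 groups of 3 arrays, all from total RNA of plants grown in a growth room. How much zinc the control medium held is not stated in the sources used here. No label states that replicate arrays hold different plants, and p-values therefore cover array-to-array spread that could be purely technical. Plants were labelled with 10 to 16 rosette leaves, except that A. halleri control root array 1 has a different stage code.

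The printed labels did not follow the organ markers. The mean log2(signal + 16) of 4 leaf genes minus that of 3 root genes had the sign of the labelled organ on 9 of 24 arrays and the opposite sign on 15. The titles carry serial numbers 1 to 24, and when they are sorted as text (1, 10, 11 and on) and the array at each place is given the group printed with that serial, the sign matched the organ on 23 of 24 arrays. This assignment, called the text order, is inferred from the serial numbers in the titles and is not stated by the labels. The array that correlated best with a given array came from the same species and organ for 22 of 24 arrays in the text order and for 5 of 24 by the printed labels. It came from the same species for 24 of 24 arrays in the text order. It came from the same group, medium included, for 1 of 24 arrays in each grouping. The 1 array against its text-order organ is A. petraea high zinc root array 2, with a leaf minus root difference of 3.43, where the other text-order root arrays lay between -3.89 and -0.10 and the leaf arrays between 3.24 and 5.83. Its leaf marker mean of 10.62 lay among those of the leaf arrays (9.90 to 11.25). Its root marker mean of 7.20 lay above theirs (5.41 to 7.05), so it carried markers of both organs. The leaf array at 7.05, A. petraea control leaf array 2, was kept. Whether either array holds a mixed sample was not tested. Results are given in the text order first, then by the printed labels, and the main counts that use the array against its organ are given with and without it. Departures from the family are given only with it. Arrays had median signals of 43.0 to 71.5. In whole organs, fewer cells of a type and less RNA per cell cannot be told apart.

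**Figure D1:**
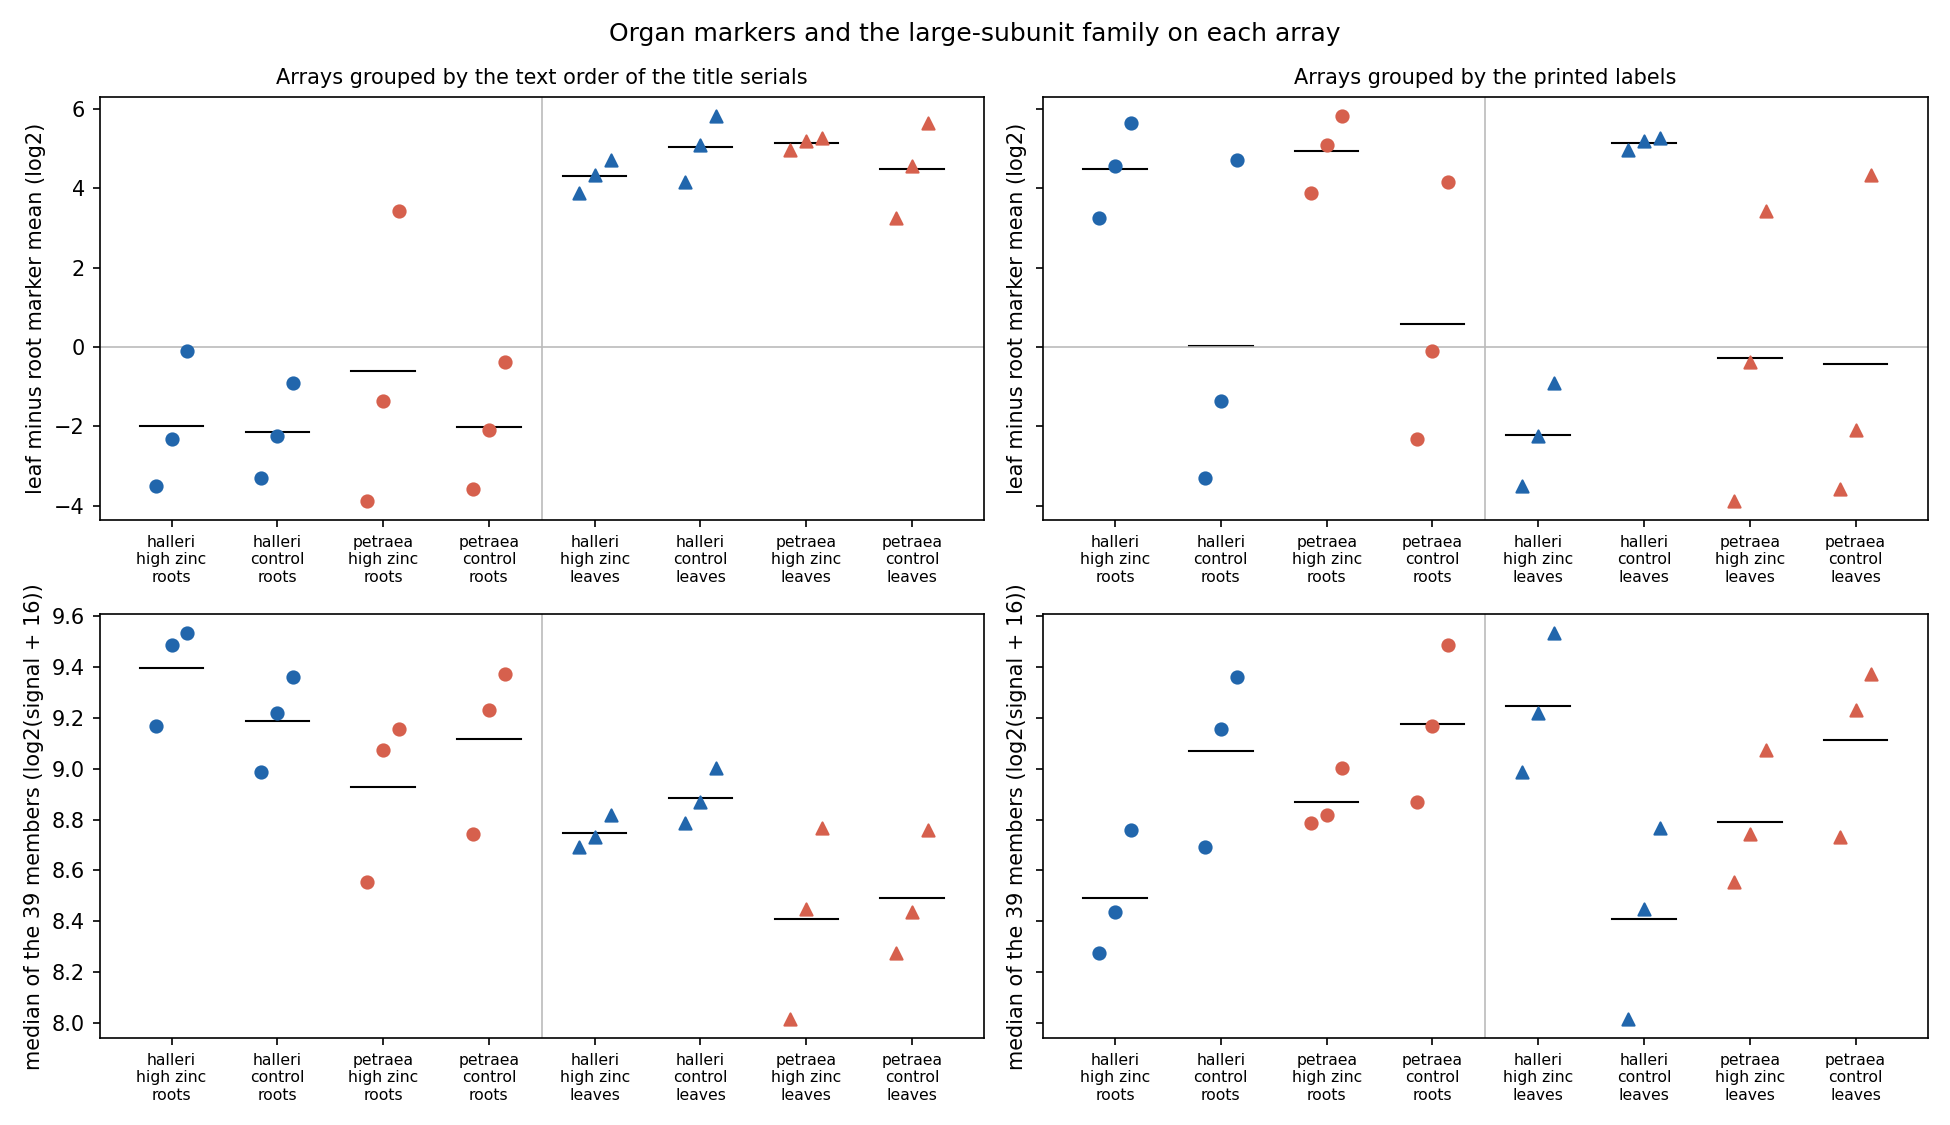
Leaf minus root marker mean (top, log2) and the median of the 39 members (bottom, log2(signal + 16)) on each of the 24 arrays, grouped by the text order (left) and by the printed labels (right). Blue is A. halleri and orange A. petraea, circles are roots and triangles leaves, and bars are means of 3 arrays. Grouped by the text order, all root arrays but 1 lie below 0 for the markers, and the family median is higher on most root arrays than on the leaf arrays of the same species.

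The question of the species comparison is which members had another signal in the zinc-tolerant than in the non-tolerant species, over both media. The median change of the family was small in the text order, while a few paralogs differed several-fold, in opposite directions. With limma, 5 members were higher and 3 lower in A. halleri than in A. petraea roots (adjusted p under 0.05, Benjamini-Hochberg over the 17107 probe sets tested), where 2.43% of all probe sets were higher and 2.26% lower. In leaves 4 members were higher and 3 lower, where 2.9% of all probe sets were higher and 3.16% lower. The median change of the 39 members was 0.00 in roots and 0.19 in leaves on the log2(signal + 16) scale, and that of all probe sets was 0.08 in roots and -0.01 in leaves. Of the 39 members, 22 changed by less than 0.5 in both organs and 8 by more than 1 in at least 1 organ. The same 6 members were called in both organs, 75% of the root calls and 85.7% of the leaf calls. The overlap of calls and the counts by size of change are not given here for all probe sets, so they need not be particular to the members. The 2 comparisons use different arrays. Without the array against its organ, 4 members were higher and 3 lower in roots, where 1.63% of all probe sets were higher and 1.85% lower, and 4 were higher and 3 lower in leaves, where 3.09% were higher and 3.66% lower. The root median of the members was then -0.09. With the text-order number as a replicate block 7 members were higher and 5 lower in roots, where 4.31% of all probe sets were higher and 4.1% lower. In leaves this fit called 4 members higher and 3 lower, where 4.54% of all probe sets were higher and 5.05% lower.

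The widest contrast lay within the L29 pair. AT3G06700 had a signal of 440.1 at the lowest, 499 at the median and 995 at the highest of the 6 A. halleri root arrays, against 31.2, 55.1 and 86.0 on the 6 A. petraea root arrays. In leaves AT3G06700 had 269, 362 and 572 at the lowest, median and highest in A. halleri, against 27.9, 46.3 and 85.4 in A. petraea. The 12 A. halleri arrays therefore all lay above the 12 A. petraea arrays. The change of AT3G06700 was 3.08 ± 0.27 (SE, limma adjusted p = 9.04e-07) in roots and 2.65 ± 0.27 (adjusted p = 2.48e-06) in leaves. Since the A. petraea signals are dim, its size depends on the pseudocount: with 1 in place of 16 the change of AT3G06700 was 3.40 in roots and 3.01 in leaves, and with 64 it was 2.44 and 1.98.

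Its partner AT3G06680, the other L29 gene, ran the opposite way. AT3G06680 had signals of 183, 311 and 424 at the lowest, median and highest in A. halleri roots, against 1302, 2315 and 3562 in A. petraea roots. In leaves AT3G06680 had 178, 207 and 367 in A. halleri, against 736, 1544 and 3687 in A. petraea. Again the arrays of the species did not overlap. The change was -2.84 ± 0.39 (limma adjusted p = 1.49e-04) in roots and -2.71 ± 0.39 (adjusted p = 1.21e-04) in leaves. The paralogs of L29 thus differed by 5.92 in their species change in roots and by 5.36 in leaves, while the mean of their changes was 0.12 in roots and -0.03 in leaves. Levels of different probe sets were not set against each other, so these values do not say which gene of the pair had more transcript in either species.

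**Figure D2:**
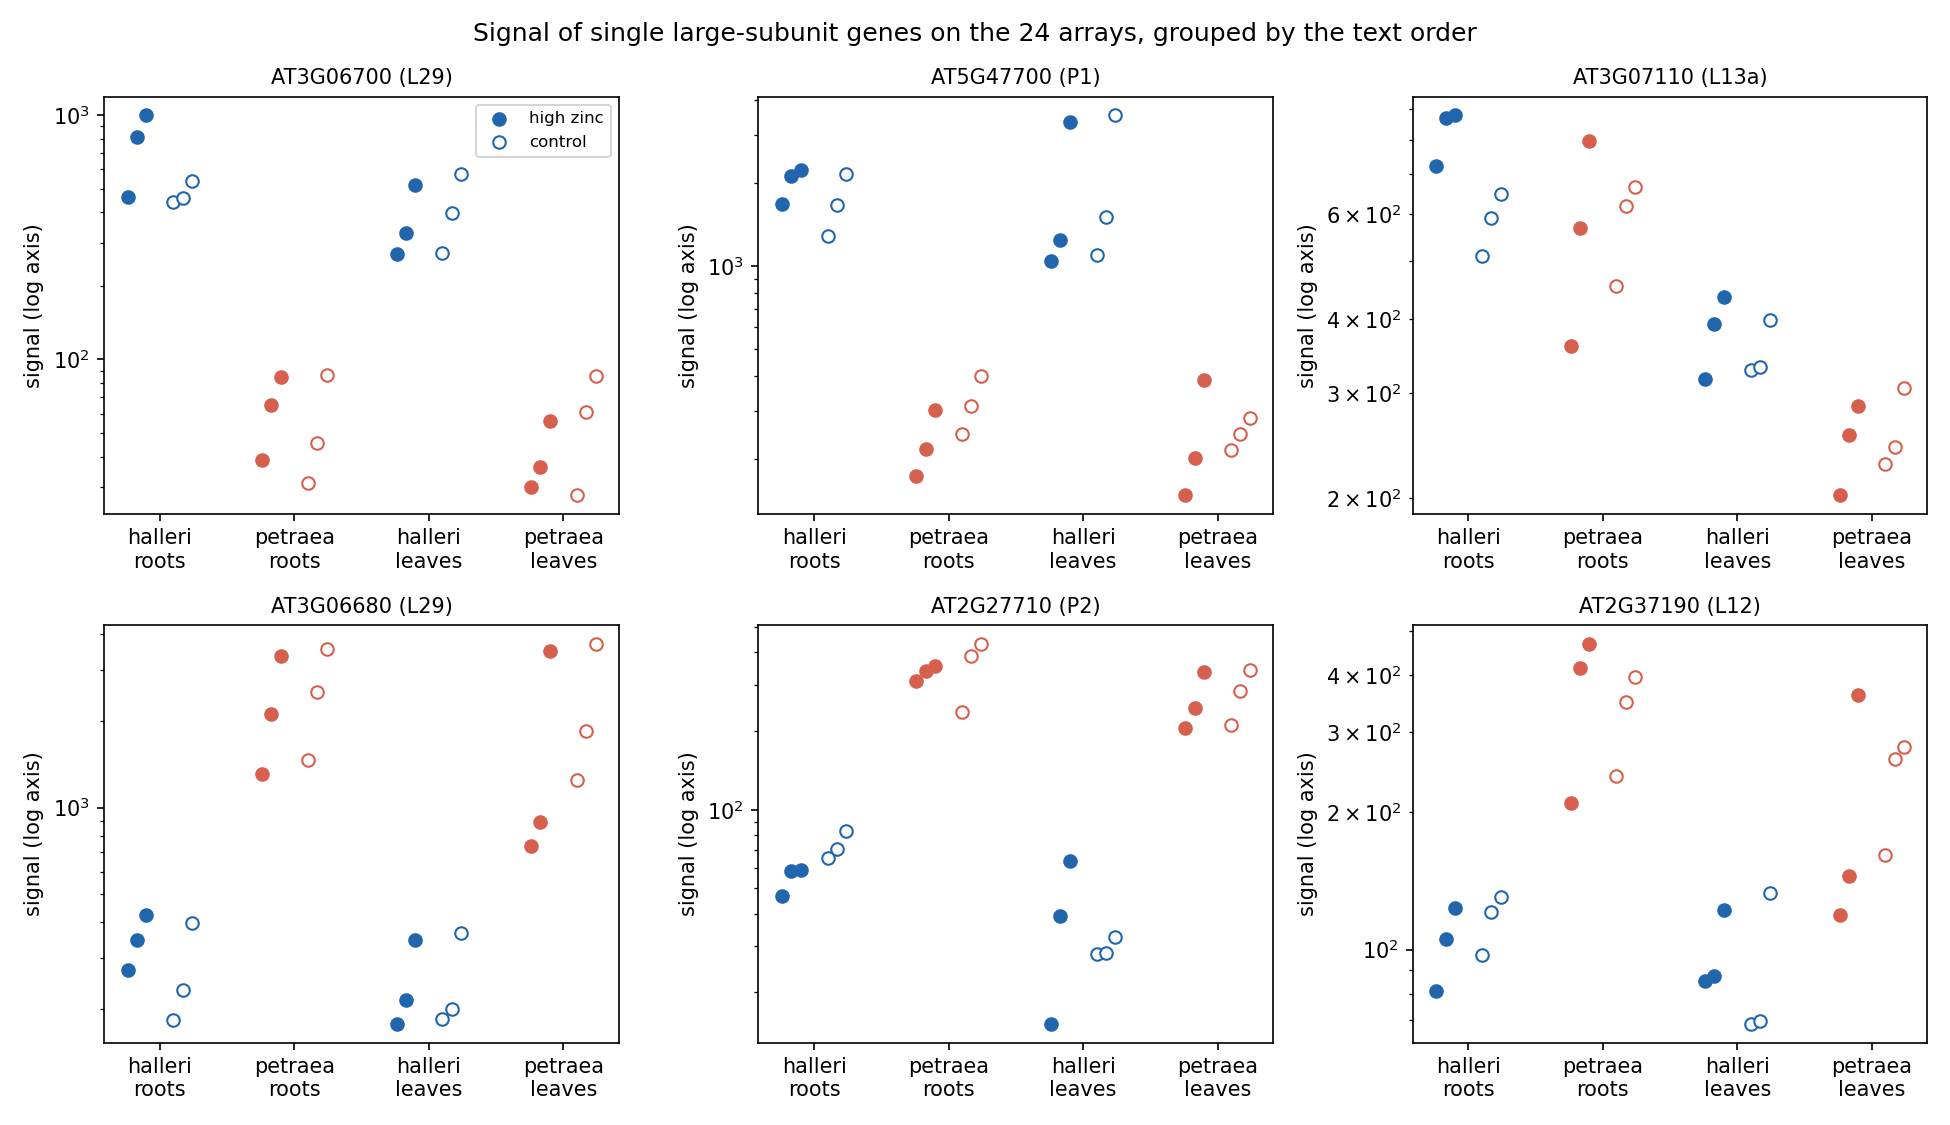
Signal (log axis) of 6 members on the 24 arrays grouped by the text order, with A. halleri in blue and A. petraea in orange, high zinc filled and control open. Arrays of a group are drawn in order of value. AT3G06700 and AT5G47700 lie higher on every A. halleri array than on any A. petraea array, AT3G06680 and AT2G27710 lie lower, and AT3G07110 is shown as a member that differs between organs.

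The stalk proteins held the other members with non-overlapping species. AT5G47700, a P1 gene, had signals of 1289, 1902 and 2239 at the lowest, median and highest in A. halleri roots, against 174, 274 and 399 in A. petraea roots. In leaves AT5G47700 had 1046, 1376 and 3517 in A. halleri, against 148.5, 232 and 387 in A. petraea. Its change was 2.71 ± 0.32 (limma adjusted p = 3.15e-05) in roots and 2.77 ± 0.32 (adjusted p = 1.11e-05) in leaves. The other P1 genes did not pass the test: AT1G01100 changed by -0.08 ± 0.39 in roots and 0.24 ± 0.39 in leaves, and AT4G00810 by -0.83 ± 0.30 and -0.26 ± 0.30.

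AT2G27710, a P2 gene, fell. Its signals were 47.0, 62.1 and 83.2 at the lowest, median and highest in A. halleri roots, against 237, 347 and 430.1 in A. petraea roots. In leaves AT2G27710 had 15.2, 30.5 and 63.9 in A. halleri, against 206, 265 and 344 in A. petraea. The change of AT2G27710 was -2.16 ± 0.21 (limma adjusted p = 2.76e-06) in roots and -2.54 ± 0.21 (adjusted p = 1.51e-07) in leaves. Of the other P2 genes, AT2G27720 changed by -0.59 ± 0.30 in roots and 0.47 ± 0.30 in leaves and AT3G44590 by -1.07 ± 0.43 and -0.37 ± 0.43, and none of these passed the test. In A. halleri leaves the lowest AT2G27710 signal, 15.2, is below the pseudocount of 16, and the leaf change of AT2G27710 was -3.03 with a pseudocount of 1 and -1.76 with 64.

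L12 repeated this at a smaller size. AT2G37190 had signals of 81.3, 113 and 130.1 at the lowest, median and highest in A. halleri roots, against 210, 373 and 467 in A. petraea roots, and the arrays did not overlap. In leaves AT2G37190 had 68.8, 86.4 and 133 in A. halleri, against 119, 211 and 361 in A. petraea, and there they overlapped. Its change was -1.49 ± 0.26 (limma adjusted p = 0.00184) in roots and -1.04 ± 0.26 (adjusted p = 0.0194) in leaves. The L12 paralogs AT3G53430 (0.39 ± 0.25 in roots, 0.32 ± 0.25 in leaves) and AT5G60670 (-0.15 ± 0.34 and 0.28 ± 0.34) did not pass the test.

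Outside L29 and the stalk, the called members were all higher in A. halleri. AT4G17390, an L15 gene, had signals of 883, 988 and 1271 at the lowest, median and highest in A. halleri roots, against 263, 370 and 440.2 in A. petraea roots, and the arrays did not overlap. AT4G17390 changed by 1.47 ± 0.28 in roots (limma adjusted p = 0.00365) and by 0.65 ± 0.28 in leaves (adjusted p = 0.202), and the other L15 gene, AT4G16720, changed by -0.13 ± 0.22 and -0.11 ± 0.22. AT5G27850, an L18 gene, changed by 1.03 ± 0.25 in roots (adjusted p = 0.0178) and by 0.12 ± 0.25 in leaves (adjusted p = 0.863). AT2G01250, an L7 gene, was higher by 0.92 ± 0.24 in roots (adjusted p = 0.0309) and 0.95 ± 0.24 in leaves (adjusted p = 0.0214). AT3G62870, an L7a gene, was higher by 0.94 ± 0.26 in leaves (adjusted p = 0.0355) and changed by 0.83 ± 0.26 in roots (adjusted p = 0.0693). Whether the species change of L15 or L18 differs between the organs was tested with the species difference in organ, where AT4G17390 gave 0.83 ± 0.40 (adjusted p = 0.478) and AT5G27850 gave 0.91 ± 0.35 (adjusted p = 0.313).

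These calls did not rest equally on all arrays. With each of the 12 arrays of a comparison left out in turn, the calls of AT3G06700, AT3G06680, AT5G47700 and AT2G27710 were kept in every fit in both organs, and so were those of AT2G37190 and AT4G17390 in roots. The call of AT2G37190 in leaves was lost in 2 of 12 fits (change -1.18 to -0.81) and that of AT5G27850 in roots in 2 of 12 (change 0.90 to 1.19). The call of AT2G01250 was lost in 8 of 12 fits in roots, the array against its organ among them (0.81, adjusted p = 0.0769), and in 2 of 12 in leaves, and that of AT3G62870 in 8 of 12 in leaves. Each of these kept its direction.

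To set single paralogs against the family, the median of the members was subtracted on each array and the model was fitted again. This family median had a mean of 9.29 on A. halleri and 9.02 on A. petraea root arrays, and of 8.82 and 8.45 on leaf arrays. It thus differed between the species by more than the median change of the members did. Departures are measured against this shifted level, which moves them downward. In roots 3 members lay above the family and 5 below, where 4.31% of all probe sets departed from it in either direction. In leaves 2 members lay above and 4 below, where 9.3% of all probe sets departed. AT3G06700, AT5G47700 and, in roots, AT4G17390 lay above the family, and AT3G06680, AT2G27710, AT2G37190 and AT1G67430 (L17) lay below it in both organs, with AT4G00810 (P1) below it in roots. AT1G67430 departed by -0.84 ± 0.24 in roots (limma adjusted p = 0.0415) and -0.84 ± 0.24 in leaves (adjusted p = 0.0290). Its own species change, -0.57 in roots and -0.47 in leaves, did not pass the test, and the rest of the departure is the shift of the family median.

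The spread within protein classes shows where the paralogs part. Of the 15 classes with at least 2 members tested, 5 had paralogs whose species change in roots differed by more than 1, namely L29 (5.92), P1 (3.53), L12 (1.88), L15 (1.61) and P2 (1.57). In leaves there were 4 such classes, L29 (5.36), P1 (3.03), P2 (3.00) and L12 (1.36). The median spread over the 15 classes was 0.57 in roots and 0.49 in leaves. For the organ change it was 0.33 in A. halleri, with 1 class over 1, and 0.24 in A. petraea, with 0 classes over 1. Over all arrays, the signals of the species did not overlap (12 arrays against 12) for 2 members higher in A. halleri, AT3G06700 and AT5G47700, and 2 lower, AT3G06680 and AT2G27710, while 0.386% of all probe sets did not overlap.

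**Figure D3:**
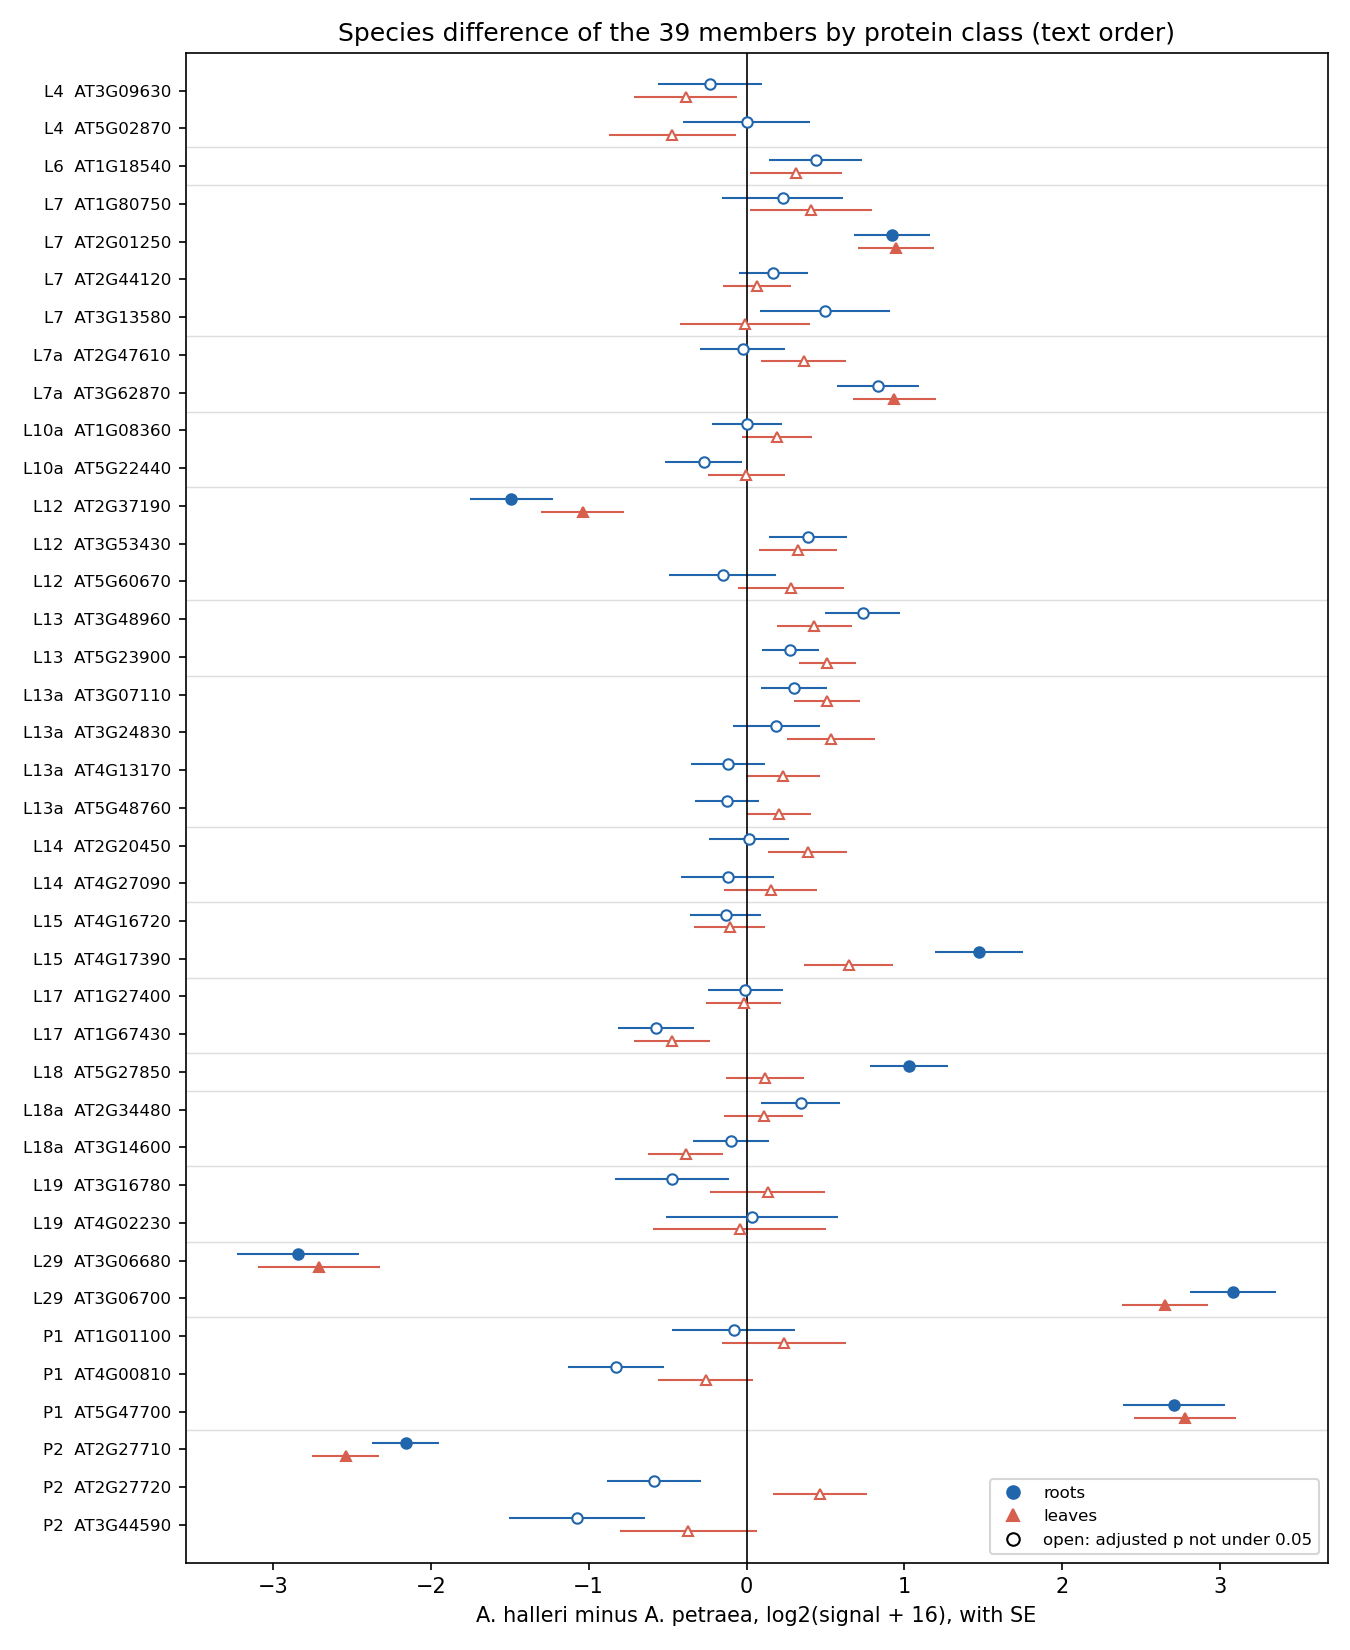
Change of the 39 members between the species (A. halleri minus A. petraea, log2(signal + 16), with SE), grouped by protein class, in roots (circles) and leaves (triangles). Filled points have an adjusted p under 0.05. Most members lie within 1 of 0, and the L29, P1, P2 and L12 classes each hold 1 or more genes far from the others of their class.

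These are differences in signal on probes of another species. Probes designed on A. thaliana lose signal where a transcript differs in sequence, and near-identical paralogs can bind each other's probes. The part of either in the species changes was not tested.

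The question of the organ comparison is how far the family as a whole differs between roots and leaves. Nearly all members had, by the text order, more signal in roots than in leaves, in both species, by an amount that was modest for each gene. In A. halleri 11 of 39 members were higher in roots and 0 lower, where limma called 25.6% of all probe sets higher and 12.4% lower. In A. petraea 11 were higher and 0 lower, where 12.1% of all probe sets were higher and 9.36% lower. The change was positive for 35 of 39 members in A. halleri and 38 of 39 in A. petraea. Of all 17107 probe sets tested, 11241 had a positive change in A. halleri and 11043 in A. petraea. The median change of the members was 0.48 in A. halleri and 0.58 in A. petraea, against 0.28 and 0.19 for all probe sets. In A. halleri the share of members called higher, 28.2%, is near that of all probe sets.

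The family median, the middle log2 value of the 39 members on an array, shows the same by array. It was 8.99 at the lowest, 9.29 at the median and 9.53 at the highest of the 6 A. halleri root arrays, against 8.69, 8.80 and 9.00 on the A. halleri leaf arrays. In A. petraea it was 8.55, 9.11 and 9.37 on the root arrays, against 8.02, 8.44 and 8.77 on the leaf arrays. In both species the ranges of root and leaf arrays overlapped. The lowest A. petraea root array, at 8.55, was the one against its organ, and the next had 8.74. The median of all probe sets tested was also higher on A. halleri root arrays (6.64 to 6.86) than on leaf arrays (6.34 to 6.62). In A. petraea it was 6.56 to 6.81 on root and 6.35 to 6.68 on leaf arrays. The family median minus this median was 2.13 to 2.89 in A. halleri roots and 2.07 to 2.53 in leaves. In A. petraea it was 1.92 to 2.75 and 1.46 to 2.41, so these ranges overlapped in both species.

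The members called in both species were genes of L13a, L18a and L17, and L17 is a protein of the exit tunnel. AT3G07110, an L13a gene, had signals of 509.8, 687 and 879 at the lowest, median and highest in A. halleri roots, against 317.5, 362 and 435 in A. halleri leaves. In A. petraea AT3G07110 had 359.9, 594 and 795 in roots, against 203, 249.5 and 306.5 in leaves. Root and leaf arrays did not overlap in either species. Its change was 0.89 ± 0.21 in A. halleri (limma adjusted p = 0.00246) and 1.11 ± 0.21 in A. petraea (adjusted p = 7.19e-04). The lowest A. petraea root signal of AT3G07110, 359.9, came from the array against its organ and lay below the highest A. halleri leaf signals.

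AT2G34480, an L18a gene, had signals of 1473, 1989 and 2909 at the lowest, median and highest in A. halleri roots, against 802.5, 909.9 and 1306 in A. halleri leaves. In A. petraea AT2G34480 had 1279, 1560 and 2084 in roots, against 578, 950.3 and 1310 in leaves, where 1 root and 1 leaf array crossed. Its change was 1.07 ± 0.25 in A. halleri (limma adjusted p = 0.00239) and 0.83 ± 0.25 in A. petraea (adjusted p = 0.0209). The L17 genes AT1G67430 (0.68 ± 0.24 in A. halleri, 0.79 ± 0.24 in A. petraea) and AT1G27400 (0.71 ± 0.24 and 0.70 ± 0.24) were the other members called in both species. These 4 genes are 36.4% of the calls in each species. The overlap of calls over all probe sets is not given here, so this share need not be particular to the members.

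In A. halleri the largest organ change was that of AT4G17390 (L15), at 1.43 ± 0.28 (limma adjusted p = 5.43e-04). Its signals were 883, 988 and 1271 at the lowest, median and highest in roots, against 168, 468 and 612.5 in leaves. Other members called there were AT5G02870 (L4, 1.18 ± 0.40), AT5G27850 (L18, 0.98 ± 0.25), AT3G48960 (L13, 0.91 ± 0.24), AT3G09630 (L4, 0.91 ± 0.33), AT3G14600 (L18a, 0.90 ± 0.24) and AT2G27710 (P2, 0.70 ± 0.21). In A. petraea they were AT3G16780 (L19, 1.04 ± 0.36), AT2G27720 (P2, 0.90 ± 0.30), AT5G22440 (L10a, 0.79 ± 0.24), AT3G62870 (L7a, 0.74 ± 0.26), AT4G13170 (L13a, 0.68 ± 0.24), AT5G48760 (L13a, 0.63 ± 0.20) and AT5G23900 (L13, 0.58 ± 0.18). Without the array against its organ AT3G16780 (1.07, limma adjusted p = 0.0536) and AT4G13170 (0.66, adjusted p = 0.0590) lost this call. A call in 1 species and not in the other does not show a difference: 0 members were called for the species difference in organ with limma (2 at an unadjusted p under 0.05, AT5G27850 and AT2G27720), where 0.52% of all probe sets were called. At the unadjusted threshold 5.13% of the members and 10.46% of all probe sets passed.

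**Figure D4:**
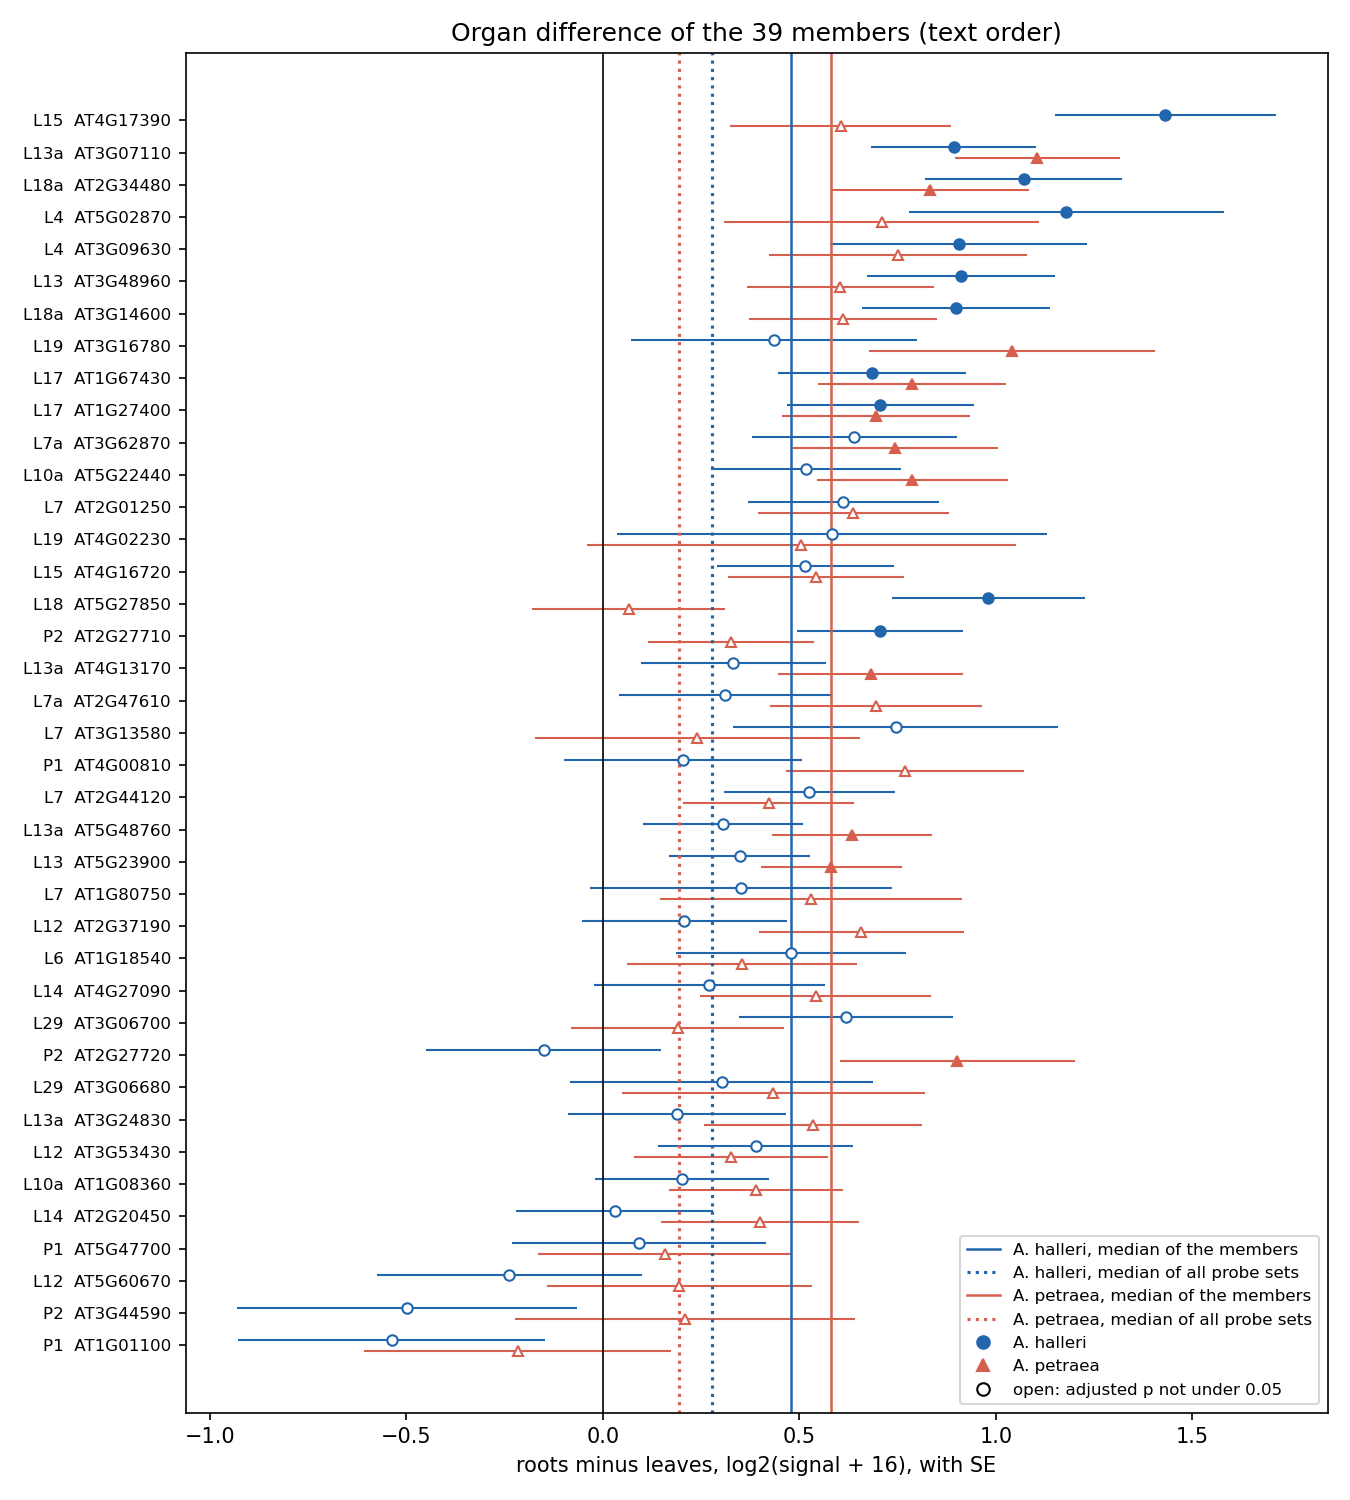
Change of the 39 members between roots and leaves (log2(signal + 16), with SE) in A. halleri (blue circles) and A. petraea (orange triangles), in order of the mean of both. Filled points have an adjusted p under 0.05, solid lines are the medians of the members and dotted lines the medians of all probe sets. Nearly all points lie right of 0.

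Few members parted from the family between the organs. In A. halleri 1 member lay above the family and 1 below, where 24% of all probe sets departed from it. The fit centres the members on their own median, while all other probe sets also take on the organ shift of the family. A lower share among the members is thus partly built in and does not show that they move together. AT4G17390 lay 0.96 ± 0.30 above (limma adjusted p = 0.0195), and the P1 gene AT1G01100 lay 1.01 below, with a departure of -1.01 ± 0.36 (adjusted p = 0.0405) and an own change of -0.54 ± 0.39 that did not pass the test. In A. petraea 0 members departed with limma (3 at an unadjusted p under 0.05), where 22.7% of all probe sets did. For the species difference in organ 0 members departed (3 at an unadjusted p under 0.05), where 0.281% of all probe sets did. These shares of all probe sets are at the adjusted threshold, and those at the unadjusted one are not given here. The 4 members with a negative organ change in A. halleri were AT1G01100 (P1), AT3G44590 (P2, -0.50 ± 0.43), AT5G60670 (L12, -0.24 ± 0.34) and AT2G27720 (P2, -0.15 ± 0.30), and none passed the test.

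By array, 9 of 39 members had all 6 A. halleri root arrays above all 6 leaf arrays, where 21% of all probe sets did not overlap in either direction. In A. petraea this held for 1 member, AT3G07110, where 3.82% of all probe sets did not overlap. With 12 root against 12 leaf arrays it held for 0 members, where 0.918% of all probe sets did not overlap. Without the array against its organ it held for 2 members over both species, AT2G34480 and AT3G07110, where 5.82% of all probe sets did not overlap, and for 4 in A. petraea, AT3G09630 and AT4G17390 being the others, where 13.5% did not.

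The organ counts depended on single arrays and on scaling, while the direction did not. Without the array against its organ 12 members were called higher in A. halleri and 13 in A. petraea, 0 lower, where 25.5% of all probe sets were higher and 12.5% lower in A. halleri and 13.9% and 10.5% in A. petraea. With quantile normalization between arrays the counts were 25 and 21, again with 0 lower, where 17.7% of all probe sets were higher and 15.1% lower in A. halleri and 9.22% and 10.5% in A. petraea, and the median of the members was 0.74 and 0.75, that of all probe sets 0.12 and 0.08. With the replicate block the counts were 16 and 17, where 29.7% of all probe sets were higher in A. halleri and 17% in A. petraea, so calls over all probe sets rose too. Leaving out 1 array at a time gave 7 to 12 members in A. halleri, with 7 without control root array 2 or high zinc root array 2. In A. petraea it gave 1 to 14 members, with 1 without high zinc leaf array 2, 3 without high zinc root array 3, control root array 2 or control leaf array 1, 4 without control leaf array 3, 6 without control root array 1 and 7 without high zinc root array 1. In A. petraea the call of AT3G07110 was kept in every one of these fits, and those of AT3G16780, AT2G27720, AT1G27400 and AT4G13170 were lost in 8 of 12. The share of all probe sets called in each of these fits is not given here, so lower counts need not be particular to the members.

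Other lists of the translation apparatus, chosen with earlier results of these data known, give the setting of the organ change. Of 42 small-subunit genes tested, 8 were higher in A. halleri roots and 1 lower, with a median change of 0.37, and 7 were higher in A. petraea roots and 0 lower, with a median of 0.40. By array, the small-subunit median was 9.36 on A. halleri control leaf array 1 and 9.38 on high zinc leaf array 1. Both lay above all A. halleri root arrays (8.74 to 9.22), while the other A. halleri leaf arrays had 8.27 to 8.48. The A. halleri values therefore depend on which leaf arrays are used. Of 36 other large-subunit genes tested, 3 were higher and 2 lower in A. halleri, with a median of 0.22, and 3 were higher and 0 lower in A. petraea, with a median of 0.43. Of 7 genes of nucleolar ribosome assembly, 1 was higher in A. halleri roots and 0 in A. petraea roots, with medians of -0.07 and 0.40. Of 2 elongation factor genes, 0 were called in A. halleri and 1 was higher in A. petraea. Of all probe sets, 25.6% were higher and 12.4% lower in A. halleri roots, with a median of 0.28. In A. petraea roots 12.1% were higher and 9.36% lower, with a median of 0.19. The share called higher in A. halleri was 19.05% for small-subunit and 8.33% for other large-subunit genes, both under that of all probe sets. In A. petraea these shares were 16.7% and 8.33%.

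The question of the zinc comparison is whether the members responded to 25 µM zinc, and whether they did so differently in the species. No response of any member was called in the text order. The organ markers do not check which medium an array came from, so the zinc labels of the text order rest on the serial numbers alone. A lack of calls therefore does not show that the members do not respond to zinc. With limma 0 members were called in A. halleri roots, A. petraea roots, A. halleri leaves and A. petraea leaves, where 0%, 0%, 0% and 0.00585% of all probe sets were called. At an unadjusted p under 0.05 there were 0 members in the first 3 of these and 1, AT5G22440 (L10a, -0.74 ± 0.34), in A. petraea leaves. Of all probe sets 1.88%, 2.54%, 0.58% and 2.72% were under that threshold, in the same order. The median change of the members was 0.26 in A. halleri roots, -0.11 in A. petraea roots, -0.04 in A. halleri leaves and -0.11 in A. petraea leaves. Changes in A. halleri roots ran between -0.33 and 0.83, and 32 of 39 were positive, where 7918 of all 17107 probe sets tested were. Without the array against its organ the median in A. petraea roots was 0.06, so its sign rests on that array, and with it the 4 leaf markers had a median change of 1.24 in the same comparison. All probe sets had a median of -0.03 in A. halleri roots, and the 42 small-subunit genes one of 0.26, with 39 positive.

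For the species difference in zinc response limma called 0 members in roots and 0 in leaves (1 and 0 at an unadjusted p under 0.05), where 0% of all probe sets were called in both. At the unadjusted threshold 2.13% of all probe sets passed in roots and 1.53% in leaves. The median difference over the members was 0.38 in roots, with 33 of 39 positive, and 0.04 in leaves. Over all probe sets it was -0.01 in roots, with 8440 of 17107 positive, and 0.07 in leaves. Without the array against its organ the root median of the members was 0.22. Between arrays of a group the family median had an SD of 0.25. The 1 member at an unadjusted p under 0.05 in roots was AT5G23900 (L13, 0.75 ± 0.36).

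The L29 pair shows the size of the spread. AT3G06700 had signals of 995, 813 and 460.5 on the high zinc root arrays of A. halleri, against 538, 457 and 440.1 on the control root arrays. The zinc change of AT3G06700 was 0.58 ± 0.38 in A. halleri roots (limma adjusted p = 1), 0.20 ± 0.38 in A. petraea roots, -0.14 ± 0.38 in A. halleri leaves and -0.33 ± 0.38 in A. petraea leaves. The groups overlapped in each of the 4, and no change exceeded 2 times its SE.

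Arrays with the same text-order number resembled each other more than arrays of the same treatment in some members. AT5G47700 (P1) had 3319, 1046 and 1243 on A. halleri high zinc leaf arrays 1, 2 and 3, against 3517, 1510 and 1098 on control leaf arrays 1, 2 and 3. AT1G01100 (P1) had 1365, 516 and 441 on the same high zinc arrays, against 1433, 555 and 555 on the control arrays. AT4G17390 (L15) ran the other way, with 168, 453 and 509.5 on high zinc arrays, against 201, 484 and 612.5 on control arrays. Array 1 stood apart from arrays 2 and 3 in both media for these genes. With arrays paired by this number within each species and organ, a setting added after the data were seen, 0 members were called for zinc in any of the 4 comparisons or the 2 differences (2, 0, 0 and 2 at an unadjusted p under 0.05 in A. halleri roots, A. halleri leaves, A. petraea roots and A. petraea leaves, and 3 and 1 for the differences in roots and leaves), where 5 probe sets of 17107 were called in A. petraea leaves and 0 in the others. At the unadjusted threshold 5.173%, 2.075%, 8.242% and 9.014% of all probe sets passed, in the same order, and 7.272% and 5.156% for the differences.

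**Figure D5:**
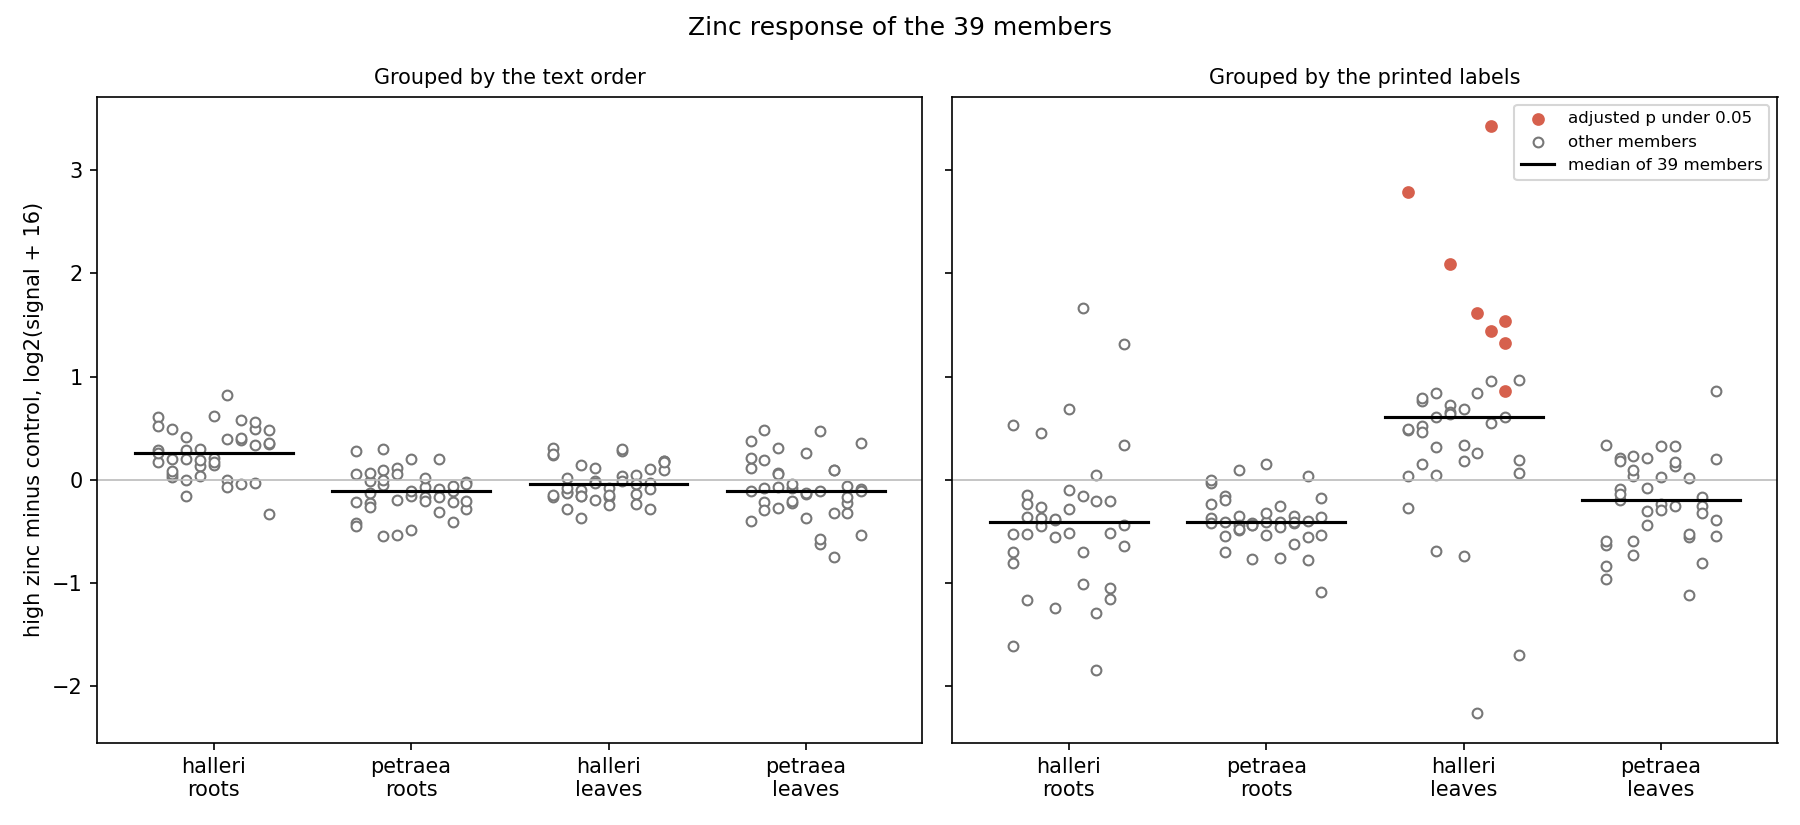
Change of the 39 members between high zinc and control (log2(signal + 16)) in 4 sets of arrays, grouped by the text order (left) and by the printed labels (right). Each point is 1 member, filled where the adjusted p is under 0.05, and bars are medians. Points stay within 1 of 0 in the text order, and 8 members are called in the A. halleri leaves of the printed labels.

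Grouped by the printed labels, the same members gave another picture. Responses were called in A. halleri leaves, where 8 of 39 members were higher and 0 lower at high zinc, while limma called 11% of all probe sets higher and 6.24% lower. The median change of the members was 0.60 and that of all probe sets 0.30. The highest was AT3G06700 (L29), with signals of 440.1, 457 and 995 on the 3 arrays labelled high zinc, against 30.1, 36.4 and 56.1 on the 3 labelled control, a change of 3.43 ± 0.58 (adjusted p = 0.0048). Next came AT5G47700 (P1, 2.78 ± 0.66), AT4G17390 (L15, 2.09 ± 0.53), AT3G48960 (L13, 1.61 ± 0.35), AT3G62870 (L7a, 1.54 ± 0.37), AT2G01250 (L7, 1.44 ± 0.37), AT3G07110 (L13a, 1.33 ± 0.37) and AT5G23900 (L13, 0.86 ± 0.28). AT3G06680 changed by -2.26 ± 0.93 (adjusted p = 0.0877) and AT2G27710 by -1.70 ± 0.72 (adjusted p = 0.0957).

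The markers move with this result. By the text order the arrays labelled A. halleri high zinc leaves are 2 A. halleri control root arrays and 1 A. halleri high zinc root array, and those labelled A. halleri control leaves are 3 A. petraea high zinc leaf arrays. The 4 leaf markers had a median change of -4.55 and the 3 root markers one of 2.29 in the same comparison. The members that separate the species in the text order gave the largest changes there, AT3G06700 and AT5G47700 upward and AT3G06680 and AT2G27710 downward. The count fell to 2 without high zinc leaf array 1 or control leaf array 2 and to 5 without high zinc leaf array 3 or control leaf array 3. The share of all probe sets called in these fits is not given here.

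The other comparisons of the printed labels called few or no members. The species difference in zinc response in leaves called 1 member higher and 0 lower, AT3G06700 at 4.55 ± 0.82 (limma adjusted p = 0.0162), where 0.0877% of all probe sets were higher and 0.263% lower. In the text order the same comparison gave AT3G06700 0.18 ± 0.54 (adjusted p = 1). Zinc called 0 members in A. halleri roots (7 at an unadjusted p under 0.05), where 0.0585% of all probe sets were called, 0 in A. petraea roots (3 unadjusted), where 0% were, and 0 in A. petraea leaves (1 unadjusted), where 0% were. At the unadjusted threshold 10.04%, 6.98% and 3.91% of all probe sets passed, in the same order. The species difference in zinc response in roots called 0 members (0 unadjusted), where 0% of all probe sets were called. The organ comparisons called 0 members in A. halleri (0 unadjusted) and 0 in A. petraea (6 unadjusted), where 0% of all probe sets were called in each. Unadjusted, 1.44% of all probe sets passed in A. halleri and 13.32% in A. petraea. The species comparisons called 0 members in roots (5 unadjusted) and 0 in leaves (3 unadjusted), and the species difference in organ called 0 (6 unadjusted), where 0% of all probe sets were called in each. Unadjusted, 5.51%, 5.44% and 6.27% of all probe sets passed, in the same order. In roots the species change of each L29 gene had opposite signs in the 2 groupings. By the printed labels it was -1.90 ± 0.41 for AT3G06700 (limma adjusted p = 0.295) and 1.98 ± 0.66 for AT3G06680 (adjusted p = 0.703). In leaves the signs were the same in both groupings, with 1.07 for AT3G06700 and -1.23 for AT3G06680 by the printed labels. Without A. petraea control leaf array 1, 5 members were called in the organ comparison of A. petraea and 2 for the species difference in organ. The share of all probe sets called in that fit is not given here, so these counts need not be particular to the members.

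The members can also be described without any grouping. Over the 24 arrays, which share their scaling, the correlation of a member with the median of the other members had a median of 0.56, with 23 of 39 members over 0.5 and 7 under 0.2. AT5G23900 (L13) and AT3G07110 (L13a) followed the family most closely, each at 0.87. AT3G06680 (L29) at -0.24 and AT2G27710 (P2) at -0.21 ran lowest. The SD over the arrays was 1.55 for AT3G06680, 1.54 for AT3G06700, 1.48 for AT5G47700 and 1.27 for AT2G27710 on the log2 scale, against a median of 0.60 over the members. AT1G08360 (L10a) varied least, with a signal of 565 to 1160 and an SD of 0.33.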

How the data were processed

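Probe set signals of 24 arrays were used as the authors deposited them. Per the submitters' processing notes each is a MAS5 intensity, on a linear scale, and no source used here gives the MAS5 version. With 2% of probe sets trimmed at each end, array means lay between 100.0045 and 100.0107, which is a scaling to 1 target, and 20.6% to 27.8% of signals were under 16. Each signal was taken as log2(signal + 16), which understates changes of dim genes. The lowest 25% of probe sets by mean were left out. limma 3.58.1 in R 4.3.3 (8 group means, 16 residual degrees of freedom, eBayes with trend and robust settings) tested 11 comparisons in each grouping, two-sided, with Benjamini-Hochberg adjustment over 17107 probe sets, and the script was tested on simulated data.

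The members, the lists and the text order were chosen with earlier results of these data known. The platform's annotation, possibly outdated, named 1 gene for 13513 probe sets and several for 503, and left 8794 unnamed. A gene with more than 1 probe set was represented by the brightest on average. Members called were named where at most 8, otherwise the 4 highest and 4 lowest, then up to 3 departing from the family in each direction, and the L29 pair always. The other called members were named after their values were seen. Cell division genes had 0 of 9 tested. Pairs of arrays correlated at r = 0.43 to 0.95. Arrays of the same number deviated together from their group means at all 3 numbers in A. petraea roots by the printed labels (r = 0.22, 0.11 and 0.38) and, in the text order, in A. halleri roots, A. halleri leaves and A. petraea leaves (r = 0.20 to 0.81), and not at number 2 of A. petraea roots (r = -0.05). The text-order number is a place in the sorted titles, not a pairing that the labels state. The alternatives were other pseudocounts, no filter, quantile normalization, only probe sets with a plain suffix, the replicate block and leaving out each array. No sequence was used.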

Additional observations from a re-analysis of the deposited data

Results flagged for a closer look

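By the printed labels the zinc response of AT3G06700 (L29) in leaves differed between A. halleri and A. petraea by 4.55 ± 0.82 on the log2(signal + 16) scale (limma interaction, adjusted p = 0.0162). Leaving out 1 array at a time gave 3.84 to 5.09, and the call was lost without A. halleri control leaf array 2, A. halleri high zinc leaf array 3 or A. petraea high zinc leaf array 3. In the text order the same difference was 0.18 ± 0.54 (adjusted p = 1).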

How the results depend on the processing

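Within each grouping none of the called members that the naming rule picked changed its direction under the alternatives that were run, while the groupings themselves gave different values for the same comparisons. In the text order the members called between roots and leaves numbered 11 in each species, and 25 in A. halleri and 21 in A. petraea with quantile normalization. The replicate block gave 17 in A. petraea. Between the species in roots it gave 7 higher and 5 lower, against 5 and 3 without it, and it moved no other total of called members by 1.5 times or more. With each array left out in turn the counts ran from 7 to 12 in A. halleri and from 1 to 14 in A. petraea. By the printed labels the same fits gave 2 to 7 members for zinc in A. halleri leaves (8 with all arrays), 0 to 5 for the organ comparison in A. petraea, 0 to 2 for the species difference in organ and 0 to 1 for the species difference in zinc response in leaves. Shares of all probe sets called with each array left out are not given here, so these ranges need not be particular to the members. The causes were not tested. Median changes moved by more than the spread of the family median in 2 cases, both with quantile normalization: 1.01 for zinc in A. halleri leaves by the printed labels and 0.74 for roots against leaves in A. halleri in the text order. Calls of members named by the rule were lost in 9 cases and gained in 3 in the text order under settings other than leaving out each array in turn. Those fits lost a call in 80 more cases in the text order and in 24 by the printed labels. AT3G16780 lost its organ call in A. petraea with a pseudocount of 1, with no filter, with quantile normalization and without the array against its organ (adjusted p 0.0536 to 0.0831). All tested members have a plain probe set suffix, so that alternative changed nothing. The pairing within each species and organ and the fit without the array against its organ were chosen after seeing the data. The number of arrays, 3 in a group, limits the precision of every value, and dim members such as AT3G16780 lie near the floor of the signal.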
